A study of Homo sapiens with 9 samples.

Results

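The DNA replication machinery was followed here through 38 genes that code for the proteins that license origins, unwind DNA, synthesise both strands and package them again. The genes were chosen by function, with earlier results of these data known, and were matched by gene symbol. Each of the 38 had exactly 1 identifier among the 51796 of the count table. All 38 passed the filter on low counts, which left 18292 genes. RNA was sequenced from A549, a human epithelial line from a lung adenocarcinoma, in 3 libraries of each of 3 groups. One group was grown with GSK591, which blocks PRMT5, the enzyme behind most symmetric dimethylation of arginine. Another was grown with MS023, which blocks the type I methyltransferases, the enzymes of asymmetric arginine dimethylation. The controls had DMSO, the solvent. Both compounds were given at 1 µM, and all groups were harvested after 7 days. The control plates were seeded with fewer cells than the treated plates (0.4 for both inhibitors and 0.2 for DMSO, on the label's scale), so in each comparison with DMSO seeding and treatment cannot be told apart, while the inhibitors share the seeding. The labels describe RNA taken in triplicate without naming separate cultures, so the p-values rest on a spread among libraries that may be technical.

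Replication starts when the origin recognition complex, CDC6 and CDT1 load the MCM2-7 ring onto DNA in G1. In S phase CDC45 and the GINS complex join the ring to make the active helicase, and polymerase alpha with primase lays primers that the clamp PCNA, its loader RFC and polymerases delta and epsilon extend. Many of these genes are textbook targets of the E2F transcription factors, and in a growing culture their mRNA is highest around the entry into S phase. In bulk RNA, fewer cells in S phase and less RNA per cell cannot be told apart.

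Library totals ran from 31398075 to 51244525 counts. GSK591 replicate 3 carried 932.5 CPM of mitochondrial rRNA, against 0.410 to 20.7 CPM in the other 8 libraries. No member's call in GSK591 ended without that library. The epithelial markers summed to 7529 to 7797 CPM in GSK591, 5084 to 5286 CPM in MS023 and 6361 to 6487 CPM in DMSO. None of these 6 genes was at 0, and most of the sum was KRT8, KRT18 and KRT7. EPCAM ran the opposite way, at 6.21 to 6.67 CPM in GSK591, 19.6 to 22.5 CPM in MS023 and 12.4 to 15.3 CPM in DMSO. CLDN4 was also highest in MS023. KRT8, KRT18 and CDH1 followed the order of the sum, and KRT7 was lowest in MS023. The leukocyte genes PTPRC and CD3E had 6 and 1 counts over all libraries and CD3D had none. The 7 leukocyte genes summed to 14.2 to 14.5 CPM in GSK591, 7.75 to 9.03 CPM in MS023 and 10.6 to 11.9 CPM in DMSO, nearly all from CD14 and ITGAM. The 7 measured fibroblast and endothelial genes summed to 10.8 to 12.6 CPM in GSK591, 28.1 to 31.2 CPM in MS023 and 15.6 to 18.0 CPM in DMSO, most of it COL1A1. Their part in the results was not tested.

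Nearly all of the 38 members were lower in GSK591, while in MS023 members lay on both sides of DMSO. Replication genes outside the members are given as a separate list below. In GSK591, 37 of 38 members fell and none rose against DMSO (edgeR quasi-likelihood test, adjusted p under 0.05), where 32.4% of all tested genes were lower and 30.1% higher. The median log2 change was -0.73 for the members and 0.01 over all genes. In filtered FPKM (pseudocount 0.1) 5254 genes were lower and 2778 higher, with a median of -0.11 over all genes and -0.71 over the members. The exception was POLE, the catalytic subunit of polymerase epsilon. In MS023, 11 members fell and 10 rose, against 25.9% of all genes lower and 25.1% higher, shares near those of the members, and the members' median log2 change was 0.01. The count higher in MS023 was 6 without MS023 replicate 3, 4 to 5 in FPKM and 13 with scaling by total counts. Tested against a log2 change of 0.5, no member was called in MS023, where 917 of all 18292 tested genes were higher and 880 lower. Compared directly, 37 of 38 members were higher in MS023 than in GSK591, where 33.6% of all tested genes were higher, with a median log2 difference of 0.76. In the same FPKM fit 5296 genes were higher and 3051 lower in MS023 than in GSK591, with a median of 0.11 over all genes and 0.76 over the members. Together the members took 0.211 to 0.221% of the counts of a GSK591 library, 0.329 to 0.335% of an MS023 library and 0.326 to 0.336% of a DMSO library.

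**Figure D1:**
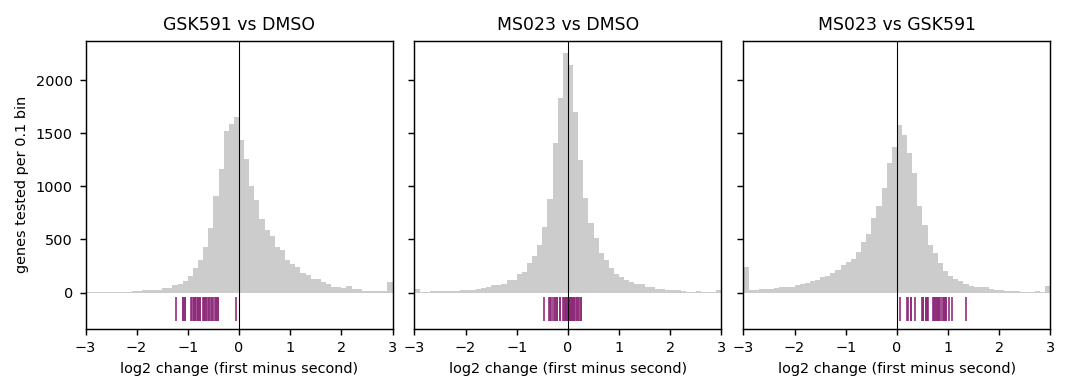
Log2 changes of all 18292 tested genes (grey bars, genes per bin of 0.1, values beyond ±3 stacked at the ends) and of the 38 replication members (purple ticks below) for GSK591 vs DMSO, MS023 vs DMSO and MS023 vs GSK591. The ticks lie left of 0 in the first panel, on both sides in the second and right of 0 in the third.

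The size of the fall in GSK591 was moderate. Of the 38 members, 5 fell at least 2-fold (GINS4, CDC45, ORC1, POLA2 and POLE2), a larger share than the 2.68% of all genes. With a test against a log2 change of 0.5, 29 members kept a call, against 6.65% of all genes. The other 8 called members, UNG, RFC3, ORC6, GINS3, CDT1, RFC1, MCM3 and POLD2, had log2 changes of -0.55 to -0.40. Of the members, 29 lay in the lowest decile of all tested genes (log2 below -0.56), and 37 in the lowest quartile. In 37 members all 3 GSK591 libraries lay below all 3 DMSO libraries, which held for 33.6% of all genes. In MS023, 13 members lay wholly below DMSO and 13 wholly above, where 29.1% and 28.4% of all genes did.

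**Figure D2:**
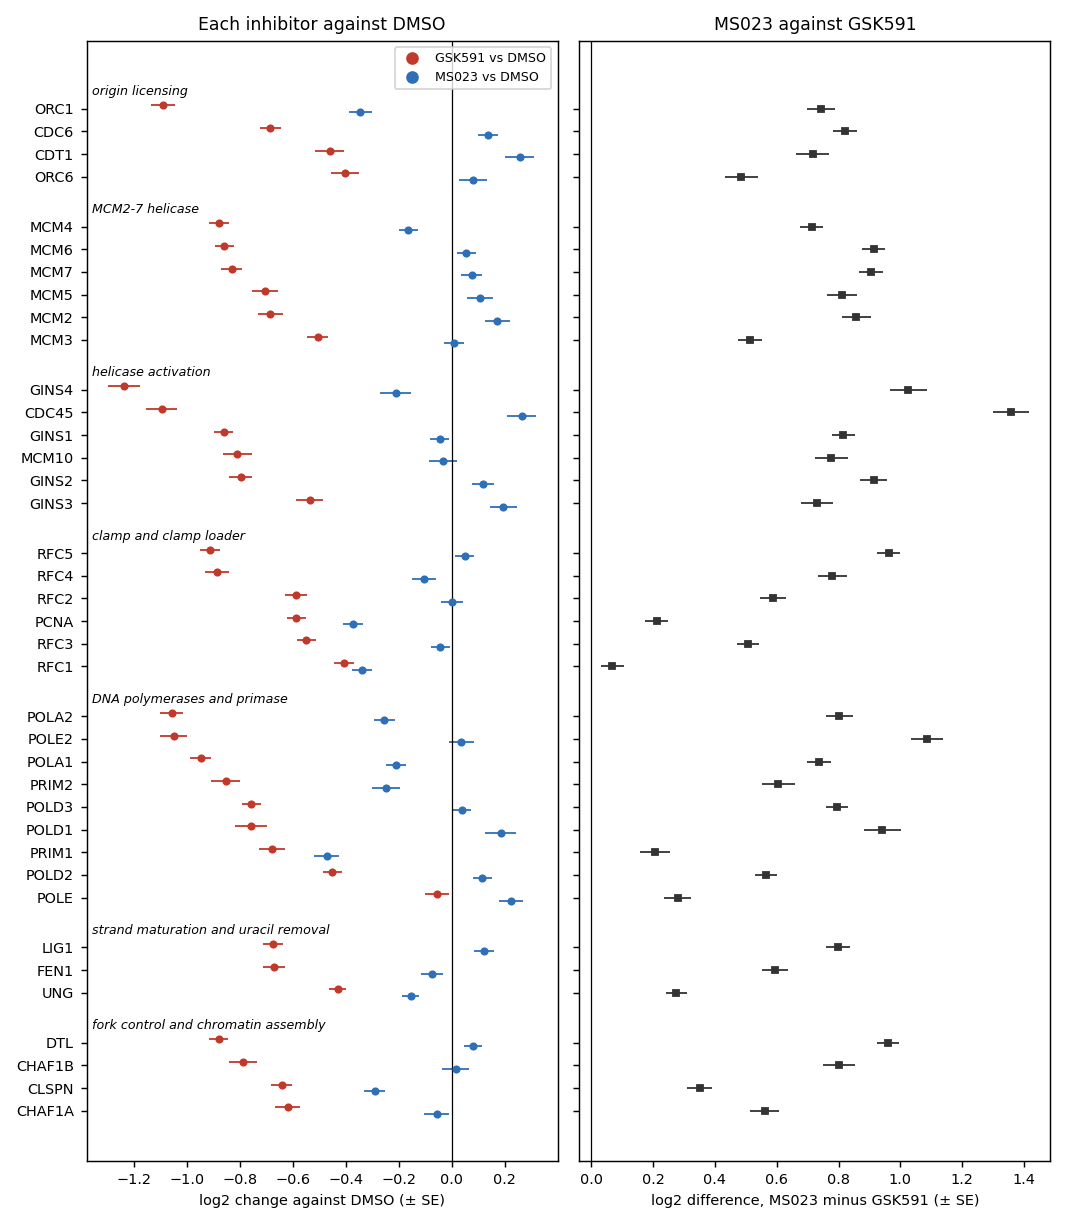
Fitted log2 change (± SE, 3 libraries per group) of each member in GSK591 (red) and MS023 (blue) against DMSO on the left, and the log2 difference MS023 minus GSK591 on the right, by role. All red points lie left of 0, blue points lie between -0.47 and 0.26, and RFC1 is nearest to 0 on the right.

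What the members share in sequence was read from their promoters, taken as 250 bases before to 50 after the start in RefSeq's table (GRCh38.p14), which held 34 of the 38 genes (not MCM4, MCM5, GINS4 and POLD3). The searched E2F words were TTTCCCGC, TTTCGCGC, TTTGCCGC and TTTGGCGC on both strands. At least 1 was found for 19 of the 34 members (55.9%), against 668 of 11040 other tested genes (6.05%) and 3.31% of all 35116 promoters in the table. A gene with several starts counted once, if any start held a word. The box CCAAT was found for 21 members (61.8%) and 42.6% of other tested genes, and TTTGAA, a word of promoters active in G2 and mitosis, for 1 member (2.94%) and 14.2% of other tested genes. POLE, which did not pass the test in GSK591, has a word. Of the 5 members that fell at least 2-fold, POLA2 and POLE2 have a word, CDC45 and ORC1 have none in this window, and GINS4 has no promoter in the table. Whether words and falls go together was not tested. Words on opposite strands can overlap, as in MCM6. Printed here are 4 promoters, shown because their genes fell most in GSK591 among members of different roles with a word before the start. Each is the 250 bases before the start, 5′ to 3′ on the gene's strand, with E2F words in capitals. The POLA2 stretch is chr11:65261712-65261961 (plus strand), with 1 word starting 53 bases before the gene's start. The DTL stretch is chr1:212035498-212035747 (plus strand), with a word that ends at the start. The MCM6 stretch is chr2:135876444-135876693 (minus strand), with 4 words in 2 overlapping pairs. The GINS2 stretch is chr16:85688955-85689204 (minus strand), with 1 word on the other strand, 31 bases before the start.
POLA2: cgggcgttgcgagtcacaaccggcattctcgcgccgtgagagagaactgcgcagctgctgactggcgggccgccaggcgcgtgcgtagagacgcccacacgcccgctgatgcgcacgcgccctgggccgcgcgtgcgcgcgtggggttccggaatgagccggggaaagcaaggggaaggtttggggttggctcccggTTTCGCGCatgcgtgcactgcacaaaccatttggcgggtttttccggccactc
DTL: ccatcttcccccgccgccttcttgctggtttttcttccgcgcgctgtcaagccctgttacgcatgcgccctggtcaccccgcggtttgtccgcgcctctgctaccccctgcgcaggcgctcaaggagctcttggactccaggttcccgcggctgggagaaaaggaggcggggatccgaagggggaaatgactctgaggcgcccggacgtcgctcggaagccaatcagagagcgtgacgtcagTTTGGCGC
MCM6: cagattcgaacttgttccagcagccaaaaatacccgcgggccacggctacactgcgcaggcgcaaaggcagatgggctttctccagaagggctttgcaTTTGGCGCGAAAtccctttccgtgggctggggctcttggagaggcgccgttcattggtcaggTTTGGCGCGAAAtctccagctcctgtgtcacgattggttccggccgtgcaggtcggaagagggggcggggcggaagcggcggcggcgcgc
GINS2: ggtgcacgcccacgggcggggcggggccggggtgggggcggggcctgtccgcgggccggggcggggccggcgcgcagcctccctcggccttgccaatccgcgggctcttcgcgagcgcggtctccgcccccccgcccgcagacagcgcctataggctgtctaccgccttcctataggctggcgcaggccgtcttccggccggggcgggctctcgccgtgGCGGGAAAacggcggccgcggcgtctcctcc
A word in a window is a description of its letters and says nothing of binding in these cells.

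The values that follow are CPM, counts scaled to library size by TMM, in replicates 1, 2 and 3 of each group. Each change is a log2 value with its standard error (±) from the fit to the 9 libraries, and gene spans are those of the authors' tables on hg19. By these spans 21 of the 38 members overlap another gene of the count table. Overlaps are named below only for the 8 members whose neighbour had the most counts relative to the member's own. Origin licensing comes first. ORC1, the ATP-binding large subunit of the origin recognition complex (ENSG00000085840, chromosome 1, 52838501 to 52870131), had 19.6, 18.2 and 18.3 CPM in GSK591, 30.99, 31.1 and 31.7 CPM in MS023 and 40.1, 40.9 and 38.2 CPM in DMSO. ORC6, its smallest subunit, had 18.3, 18.5 and 19.3 CPM in GSK591, 27.5, 26.6 and 24.4 CPM in MS023 and 23.7, 25.6 and 24.9 CPM in DMSO. CDC6, the loader that ORC recruits, had 69.7, 65.2 and 68.6 CPM in GSK591, 121, 120.3 and 118 CPM in MS023 and 106, 115 and 106 CPM in DMSO. For all 3 genes the GSK591 libraries lay below every other library, and for ORC1 the MS023 libraries lay between the other groups. CDT1, which delivers the MCM ring and is degraded in S phase, had 34.2, 31.2 and 32.9 CPM in GSK591, 50.2, 55.9 and 55.3 CPM in MS023 and 46.4, 42.1 and 46.7 CPM in DMSO, low in GSK591 and high in MS023 without overlap. All 4 fell in GSK591 (edgeR adjusted p at most 1.27e-05), with log2 changes of -1.09 ± 0.05 for ORC1, -0.69 ± 0.04 for CDC6, -0.46 ± 0.05 for CDT1 and -0.40 ± 0.05 for ORC6. In MS023 ORC1 fell (-0.34 ± 0.04, edgeR adjusted p = 1.25e-05), CDT1 rose (0.26 ± 0.05, 0.00102) and CDC6 rose (0.14 ± 0.04, 0.00883), while ORC6 did not pass (0.08 ± 0.05, 0.212). The CDC6 call in MS023 ended without DMSO replicate 3 (edgeR adjusted p = 0.0570) and in the authors' FPKM.

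The MCM2-7 ring is the core of the helicase, and its 6 subunits are needed in equal number. MCM2 had 75.05, 64.3 and 69.9 CPM in GSK591, 124, 126 and 129.6 CPM in MS023 and 114, 109 and 113 CPM in DMSO. MCM3 had 98.9, 92.1 and 98.1 CPM in GSK591, 139, 136 and 138 CPM in MS023 and 132, 141 and 138 CPM in DMSO. MCM4, a part of the ring's catalytic core, had 153, 142 and 149.7 CPM in GSK591, 241, 246 and 242 CPM in MS023 and 276, 272 and 269.9 CPM in DMSO. In these 3 genes the GSK591 libraries were the lowest, and MS023 lay above DMSO for MCM2, among DMSO for MCM3 and below DMSO for MCM4. MCM5 had 76.9, 66.3 and 69.2 CPM in GSK591, 119, 129 and 124 CPM in MS023 and 118, 112 and 116 CPM in DMSO. MCM6 had 109, 105 and 106 CPM in GSK591, 204, 199 and 199 CPM in MS023 and 189, 199 and 192 CPM in DMSO. MCM7 (ENSG00000166508, chromosome 7, 99690351 to 99699563) had 158, 144 and 151 CPM in GSK591, 279, 283 and 286 CPM in MS023 and 265, 267 and 273 CPM in DMSO. MCM5 and MCM7 lay higher in all MS023 than in all DMSO libraries, and for MCM6 these groups overlapped. All 6 fell in GSK591 (edgeR adjusted p at most 3.14e-08), with -0.88 ± 0.04 for MCM4, -0.86 ± 0.04 for MCM6, -0.83 ± 0.04 for MCM7, -0.70 ± 0.05 for MCM5, -0.68 ± 0.05 for MCM2, and -0.51 ± 0.04 for MCM3. In MS023 MCM2 rose (0.17 ± 0.05, edgeR adjusted p = 0.00602) and MCM4 fell (-0.16 ± 0.04, 0.00167), while MCM3 (0.0085 ± 0.04), MCM5 (0.11 ± 0.05), MCM6 (0.05 ± 0.04) and MCM7 (0.08 ± 0.04) did not pass. The MCM4 call in MS023 was lost in all 3 fits to FPKM. MCM7 passed, higher, with scaling by total counts (edgeR adjusted p = 0.0324). MCM5 passed without DMSO replicate 1 (edgeR adjusted p = 0.0453), scaled by total counts, without the filter and with the 6 libraries alone. MCM2 overlaps 29 bases of TPRA1, which rose in GSK591 (0.30 ± 0.06) and in MS023 (0.50 ± 0.06), and its part was not tested. Summed over the ring, GSK591 libraries held 670.3, 614 and 644 CPM, MS023 libraries 1105, 1119 and 1119.6 CPM, and DMSO libraries 1094, 1099.7 and 1101 CPM.

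CDC45 and the 4 GINS subunits turn the loaded ring into the moving helicase, and MCM10 helps to fire it. CDC45 (ENSG00000093009, chromosome 22, 19466982 to 19508135) had 12.5, 12.1 and 13.8 CPM in GSK591, 32.9, 32.6 and 33.1 CPM in MS023 and 26.04, 26.8 and 29.2 CPM in DMSO. GINS4 (ENSG00000147536, chromosome 8, 41386725 to 41402565) had 25.8, 22.5 and 24.6 CPM in GSK591, 51.5, 46.9 and 49.7 CPM in MS023 and 52.5, 59.1 and 59.7 CPM in DMSO. These genes had the deepest falls of all members, and they parted in MS023, with CDC45 wholly above and GINS4 wholly below DMSO. GINS1 had 66.6, 64.7 and 66.6 CPM in GSK591, 110.4, 118 and 119.8 CPM in MS023 and 119, 123 and 118 CPM in DMSO. GINS2 had 22.4, 20.9 and 22.9 CPM in GSK591, 41.7, 42.3 and 40.7 CPM in MS023 and 38.4, 38.8 and 37.7 CPM in DMSO. GINS3 had 16.7, 16.7 and 18.4 CPM in GSK591, 28.4, 29.7 and 28.04 CPM in MS023 and 23.98, 25.7 and 25.5 CPM in DMSO. MS023 lay above DMSO in every library for GINS2 and GINS3 and overlapped it for GINS1. MCM10 had 44.98, 39.98 and 43.6 CPM in GSK591, 73.6, 68.98 and 77.5 CPM in MS023 and 71.4, 77.9 and 75.7 CPM in DMSO, with MS023 and DMSO overlapping. In GSK591 all 6 fell (edgeR adjusted p at most 4.50e-07), with -1.24 ± 0.06 for GINS4, -1.09 ± 0.06 for CDC45, -0.86 ± 0.04 for GINS1, -0.81 ± 0.05 for MCM10, -0.80 ± 0.04 for GINS2 and -0.54 ± 0.05 for GINS3. GINS4 stood at 42.4% of its DMSO level, the lowest ratio of any member. In MS023 CDC45 rose (0.26 ± 0.05, edgeR adjusted p = 8.86e-04), as did GINS3 (0.19 ± 0.05, 0.00475) and GINS2 (0.12 ± 0.04, 0.0292), and GINS4 fell (-0.21 ± 0.06, 0.00669). GINS1 (-0.05 ± 0.04) and MCM10 (-0.03 ± 0.05) did not pass. GINS2 overlaps 7 bases of GSE1, which rose in GSK591 (0.18 ± 0.03) and in MS023 (0.31 ± 0.03), and its part was not tested. GINS2 kept its MS023 call in 8 of 18 alternatives and lost it without DMSO replicate 3 and without each MS023 replicate in turn (edgeR adjusted p from 0.0505 to 0.112). The CDC45 call was lost in 2 of the 3 fits to FPKM and the GINS4 call in all 3.

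**Figure D3:**
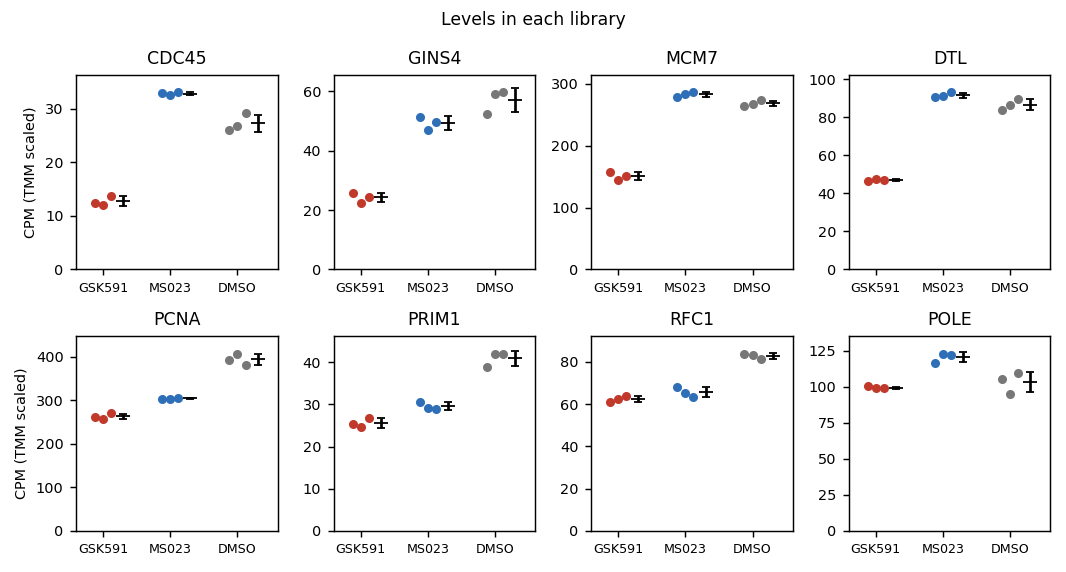
Level in each library (dots, CPM after TMM scaling, axes from 0) with mean ± SD (black, n = 3) of 8 members in GSK591, MS023 and DMSO. CDC45, MCM7 and DTL are low in GSK591 alone, GINS4 is lowest in GSK591 and between the others in MS023, PCNA, PRIM1 and RFC1 are low in both inhibitors, and GSK591 overlaps DMSO for POLE.

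PCNA is the ring-shaped clamp that holds polymerases on DNA, and the pentamer RFC1 to RFC5 loads it. PCNA (ENSG00000132646, chromosome 20, 5095599 to 5107272) had 261, 258 and 270.0 CPM in GSK591, 304, 304 and 306 CPM in MS023 and 394, 408 and 382 CPM in DMSO. Both inhibitor groups lay below every DMSO library, with GSK591 the lower. RFC1, the large subunit of the loader (ENSG00000035928, chromosome 4, 39289076 to 39367995), had 61.01, 62.6 and 63.8 CPM in GSK591, 68.1, 65.2 and 63.3 CPM in MS023 and 83.9, 83.2 and 81.4 CPM in DMSO. Both inhibitors lay below DMSO here too, and the GSK591 and MS023 libraries overlapped. The small subunits differed from this. RFC2 had 32.5, 30.6 and 32.03 CPM in GSK591, 46.97, 47.5 and 48.4 CPM in MS023 and 45.6, 49.8 and 47.3 CPM in DMSO. RFC3 had 48.5, 48.3 and 47.8 CPM in GSK591, 67.5, 68.9 and 69.1 CPM in MS023 and 70.2, 72.8 and 68.6 CPM in DMSO. RFC4 had 23.2, 22.3 and 21.02 CPM in GSK591, 37.8, 37.8 and 38.4 CPM in MS023 and 38.8, 41.8 and 42.01 CPM in DMSO. In these 3 GSK591 was the lowest group, and MS023 overlapped DMSO for RFC2 and RFC3 and lay below it for RFC4. RFC5 had 37.9, 36.2 and 36.9 CPM in GSK591, 72.9, 71.5 and 71.8 CPM in MS023 and 67.2, 71.2 and 70.5 CPM in DMSO, with MS023 just above DMSO. All 6 fell in GSK591 (edgeR adjusted p at most 2.42e-07), with -0.91 ± 0.04 for RFC5, -0.89 ± 0.05 for RFC4, -0.59 ± 0.04 for RFC2, -0.59 ± 0.04 for PCNA, -0.55 ± 0.04 for RFC3 and -0.41 ± 0.04 for RFC1. In MS023 PCNA (-0.37 ± 0.04, edgeR adjusted p = 1.20e-06) and RFC1 (-0.34 ± 0.04, 3.09e-06) fell, and RFC2 (4.2e-04 ± 0.04), RFC3 (-0.04 ± 0.03), RFC4 (-0.11 ± 0.05) and RFC5 (0.05 ± 0.04) did not pass. RFC4 passed without DMSO replicate 1 (edgeR adjusted p = 0.0335). The RFC5 span overlaps 224 bases of WSB2, and reads of overlapping genes are uncertain because the strand setting of the counting is not given in the sources used here. WSB2 had 38849 counts over all libraries against 22691 for RFC5. It fell in GSK591 (-0.25 ± 0.03, edgeR adjusted p = 7.90e-06), was higher in MS023 than in GSK591 (0.25 ± 0.03, 7.23e-06) and did not pass in MS023 against DMSO (-0.0022 ± 0.03). RFC4 overlaps 21 bases of EIF4A2, which passed in no comparison. The part of both neighbours was not tested.

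Polymerase alpha with its primase starts each strand. POLA1, its catalytic subunit, had 37.2, 36.2 and 36.5 CPM in GSK591, 61.7, 60.8 and 60.6 CPM in MS023 and 67.3, 73.7 and 70.7 CPM in DMSO. POLA2 had 21.96, 22.1 and 20.7 CPM in GSK591, 37.9, 37.8 and 37.1 CPM in MS023 and 43.5, 44.8 and 46.2 CPM in DMSO. PRIM1, the catalytic primase subunit (ENSG00000198056, chromosome 12, 57125380 to 57146157), had 25.3, 24.6 and 26.9 CPM in GSK591, 30.6, 29.1 and 28.9 CPM in MS023 and 38.9, 42.1 and 41.9 CPM in DMSO. In all 3 the groups were fully separated in the order GSK591, MS023, DMSO from low to high. PRIM2, the large primase subunit, had 20.1, 18.8 and 17.8 CPM in GSK591, 29.8, 28.2 and 28.01 CPM in MS023 and 32.1, 34.7 and 35.2 CPM in DMSO, in the same order. The PRIM2 region is known for near-identical copies in the genome, so its level is uncertain. All 4 subunits fell in GSK591, with POLA2 at -1.06 ± 0.04, POLA1 at -0.95 ± 0.04, PRIM2 at -0.85 ± 0.05 and PRIM1 at -0.68 ± 0.05 (edgeR adjusted p at most 1.68e-08). All 4 also fell in MS023, with PRIM1 at -0.47 ± 0.05, POLA2 at -0.25 ± 0.04, PRIM2 at -0.25 ± 0.05 and POLA1 at -0.21 ± 0.04 (edgeR adjusted p at most 0.00119). PRIM1 overlaps 33 bases of NACA, which had 200224 counts over all libraries against 12128 for PRIM1. NACA fell in both groups as well, with -0.30 ± 0.08 in GSK591 and -0.31 ± 0.08 in MS023 (edgeR adjusted p = 0.00563 and 0.00700), and its part in the PRIM1 values was not tested. The MS023 calls of POLA1 and PRIM2 were lost in 2 and 1 of the 3 fits to FPKM.

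Polymerase delta makes the lagging strand and polymerase epsilon the leading strand. POLD1, the catalytic subunit of delta, had 47.3, 43.6 and 47.1 CPM in GSK591, 79.9, 91.1 and 94.01 CPM in MS023 and 82.4, 73.4 and 77.4 CPM in DMSO. POLD2 had 81.5, 74.2 and 79.5 CPM in GSK591, 115, 118 and 115 CPM in MS023 and 108, 107 and 106 CPM in DMSO. POLD3 had 32.6, 31.5 and 31.6 CPM in GSK591, 54.5, 54.9 and 56.5 CPM in MS023 and 54.3, 54.6 and 52.8 CPM in DMSO. The GSK591 libraries were below all others, and MS023 lay above DMSO for POLD2 and overlapped it for POLD1 and POLD3. POLE, the catalytic subunit of epsilon (ENSG00000177084, chromosome 12, 133200348 to 133263951), had 100.3, 99.1 and 98.9 CPM in GSK591, 117, 123 and 122 CPM in MS023 and 106, 95.4 and 109 CPM in DMSO. Its GSK591 libraries lay inside the range of DMSO, and its MS023 libraries lay above both. POLE2, the next subunit of epsilon, had 10.8, 10.7 and 11.5 CPM in GSK591, 22.8, 23.9 and 23.5 CPM in MS023 and 22.2, 23.4 and 22.7 CPM in DMSO, low in GSK591, with MS023 and DMSO overlapping. In GSK591 POLE2 (-1.05 ± 0.05), POLD3 (-0.76 ± 0.04), POLD1 (-0.76 ± 0.06) and POLD2 (-0.45 ± 0.04) fell (edgeR adjusted p at most 5.24e-08). POLE did not pass (log2 -0.06 ± 0.04, 95% interval -0.15 to 0.04, edgeR adjusted p = 0.292). It passed, lower, without DMSO replicate 2 (edgeR adjusted p = 0.0456), the DMSO library with the least POLE, and had the opposite sign scaled by total counts and in FPKM, without a call. In MS023 POLE (0.22 ± 0.04, edgeR adjusted p = 6.83e-04), POLD1 (0.18 ± 0.06, 0.0166) and POLD2 (0.11 ± 0.04, 0.0142) rose, and POLD3 (0.04 ± 0.04) and POLE2 (0.04 ± 0.05) did not pass. The POLD1 and POLD2 calls in MS023 each held in 11 of 18 alternatives. Both were lost in all 3 fits to FPKM and in the test against a log2 change of 0.5. POLD1 lost its call without DMSO replicate 2 (edgeR adjusted p = 0.0535), MS023 replicate 2 (0.0617) or MS023 replicate 3 (0.0891), and POLD2 without DMSO replicate 3 (0.0604), MS023 replicate 2 (0.0854) or MS023 replicate 3 (0.0506).

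**Figure D4:**
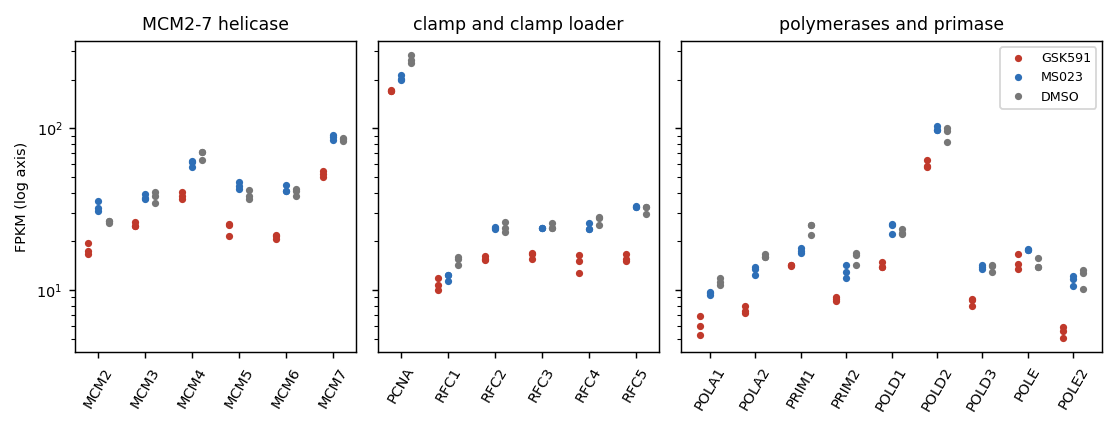
FPKM, which is scaled to gene length, in each library (dots, log axis) of the MCM2-7 ring, the clamp and its loader, and the polymerases with primase in GSK591 (red), MS023 (blue) and DMSO (grey). PCNA is highest of the members in every group, and POLD2 lies above the other polymerase subunits.

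FEN1 trims flaps of Okazaki fragments and LIG1 seals the nicks, while UNG removes uracil from new DNA. FEN1 had 43.2, 41.9 and 40.9 CPM in GSK591, 66.4, 62.8 and 60.99 CPM in MS023 and 64.8, 68.9 and 66.6 CPM in DMSO. LIG1 had 59.6, 54.2 and 57.3 CPM in GSK591, 97.7, 98.8 and 101 CPM in MS023 and 88.98, 91.4 and 92.8 CPM in DMSO. UNG had 76.6, 76.1 and 79.7 CPM in GSK591, 93.6, 93.5 and 94.1 CPM in MS023 and 102, 108 and 103 CPM in DMSO. GSK591 was lowest for all 3, and MS023 overlapped DMSO for FEN1, lay above it for LIG1 and below it for UNG. In GSK591 LIG1 (-0.68 ± 0.04), FEN1 (-0.67 ± 0.04) and UNG (-0.43 ± 0.03) fell (edgeR adjusted p at most 3.93e-08). In MS023 LIG1 rose (0.12 ± 0.04, edgeR adjusted p = 0.0131), UNG fell (-0.16 ± 0.03, 0.00123) and FEN1 did not pass (-0.08 ± 0.04). The LIG1 call ended without MS023 replicate 3 (edgeR adjusted p = 0.0719) and in FPKM. In the authors' tables FEN1 overlaps 4265 bases of FADS2, which had 188054 counts over all libraries against 21796 for FEN1. FADS2 itself changed by -0.20 ± 0.03 in GSK591 and 0.31 ± 0.03 in MS023, and its part in the FEN1 values was not tested.

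CLSPN passes the replication checkpoint signal at the fork, DTL is the receptor of the ligase that degrades CDT1 on PCNA, and CHAF1A and CHAF1B deposit histones behind the fork. CLSPN had 30.6, 31.1 and 28.8 CPM in GSK591, 38.6, 38.1 and 38.5 CPM in MS023 and 46.5, 47.2 and 47.3 CPM in DMSO. DTL had 46.5, 47.5 and 47.2 CPM in GSK591, 90.5, 90.97 and 93.1 CPM in MS023 and 83.8, 86.4 and 89.5 CPM in DMSO. Both were lowest in GSK591, while MS023 lay below DMSO for CLSPN and above it for DTL. CHAF1A had 33.5, 29.2 and 31.6 CPM in GSK591, 46.4, 46.8 and 45.8 CPM in MS023 and 47.5, 47.5 and 49.6 CPM in DMSO. CHAF1B had 22.2, 21.7 and 19.9 CPM in GSK591, 36.7, 37.4 and 37.2 CPM in MS023 and 35.2, 39.1 and 35.7 CPM in DMSO. The chromatin assembly genes were again lowest in GSK591, with MS023 below DMSO for CHAF1A and overlapping it for CHAF1B. In GSK591 DTL (-0.88 ± 0.04), CHAF1B (-0.79 ± 0.05), CLSPN (-0.64 ± 0.04) and CHAF1A (-0.62 ± 0.05) fell (edgeR adjusted p at most 3.21e-08). In MS023 only CLSPN of these 4 passed (-0.29 ± 0.04, edgeR adjusted p = 2.33e-05), with DTL at 0.08 ± 0.03, CHAF1A at -0.06 ± 0.05 and CHAF1B at 0.01 ± 0.05. DTL passed in MS023, higher, without DMSO replicate 3 (edgeR adjusted p = 0.0414), under a 1 CPM filter, and when total counts set the scaling. CHAF1B overlaps 771 bases of MORC3, which had 11200 counts over all libraries against 12031 for CHAF1B. MORC3 did not pass in GSK591 (0.07 ± 0.05) and rose in MS023 (0.13 ± 0.05, edgeR adjusted p = 0.0316). CHAF1A overlaps 20 bases of UBXN6, which fell in GSK591 (-0.27 ± 0.04) and rose in MS023 (0.19 ± 0.04). The part of MORC3 and UBXN6 in these values was not tested.

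The inhibitors were compared directly, at equal dose, time and seeding. CDC45 differed most, with 32.9 ± 0.283 CPM in MS023 and 12.8 ± 0.875 CPM in GSK591 (SD, n = 3 each), a log2 difference of 1.36 ± 0.06. POLE2 (1.09 ± 0.05) and GINS4 (1.03 ± 0.06) followed. At the other end RFC1, with 65.5 ± 2.40 CPM in MS023 and 62.5 ± 1.40 CPM in GSK591, had a log2 difference of 0.07 ± 0.04 (95% interval -0.01 to 0.15, edgeR adjusted p = 0.120), the only member without a call, and it had none in the alternatives run (18 settings). The differences of PRIM1 (0.21 ± 0.05, edgeR adjusted p = 0.00178), PCNA (0.21 ± 0.04, 1.50e-04), UNG (0.28 ± 0.03, 3.74e-06), POLE (0.28 ± 0.04, 5.74e-05) and CLSPN (0.35 ± 0.04, 1.97e-06) were the next smallest. In all 37 called members every MS023 library lay above every GSK591 library, which held for 36.1% of all genes. Against a log2 difference of 0.5, 27 members kept a call, against 9.51% of all genes.

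Levels of different genes were compared in the authors' FPKM. PCNA led in every group, with 171 ± 1.30 FPKM in GSK591, 206 ± 7.85 FPKM in MS023 and 269 ± 15.05 FPKM in DMSO (SD, n = 3 each). POLD2, MCM7 and MCM4 followed in that order in all 3 groups. CHAF1B and ORC1 were the lowest members, ORC1 with 4.24 ± 0.378 FPKM in GSK591, 7.64 ± 0.299 FPKM in MS023 and 9.76 ± 0.526 FPKM in DMSO. The median member stood at 14.2 FPKM in GSK591, 18.4 FPKM in MS023 and 20.3 FPKM in DMSO. Within the ring, the FPKM of DMSO libraries ran from 25.9 to 26.8 for MCM2 up to 83.1 to 87.2 for MCM7, with MCM3, MCM5 and MCM6 overlapping. CDC45 took rank 34 of 38 members in GSK591, 23 in MS023 and 29 in DMSO, and POLE rank 16 in GSK591, 21 in MS023 and 26 in DMSO.

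A list of 38 other replication genes was read beside the members. In GSK591 34 fell, ORC4, a subunit of the origin recognition complex, rose (0.13 ± 0.04), and ASF1A, CHTF18 and ORC5 did not pass. The largest falls were RPA3, the small subunit of the single-strand binding protein (-1.19 ± 0.10), and WDHD1, which ties polymerase alpha to the helicase (-1.18 ± 0.04). In MS023 18 fell and 4 rose, with POLD4, the smallest subunit of polymerase delta (-0.73 ± 0.08), and RPA3 (-0.56 ± 0.09) lowest and the histone chaperone ASF1A (0.31 ± 0.05) and the helicase RECQL4 (0.30 ± 0.06) highest. Between inhibitors 28 were higher in MS023, led by the fork protection gene TIMELESS (1.13 ± 0.04) and DONSON (1.12 ± 0.05), and 5 lower (31.7% of all genes), led by ORC5 (-0.23 ± 0.05) and MCM9 (-0.22 ± 0.06). Their median log2 changes were -0.55 in GSK591 and -0.08 in MS023. Of 13 enzymes of nucleotide supply, 10 fell and 2 rose in GSK591, with RRM2B, a ribonucleotide reductase subunit induced by p53 (0.61 ± 0.04), and NME1 (0.24 ± 0.04) higher, and 5 fell and 1 rose in MS023. All 25 mitosis genes of a further list fell in GSK591 (median -0.98), and 19 fell and none rose in MS023 (median -0.25). Over all tested genes, 32.4% were lower and 30.1% higher in GSK591, and 25.9% lower and 25.1% higher in MS023. Between inhibitors, 33.6% of all tested genes were higher in MS023. No test of the members against these lists was made.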

How the data were processed

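RNA from 9 libraries of A549 cells was analysed, 3 each for GSK591, MS023 and DMSO. Per the labels' protocols, ribosomal RNA was removed and paired-end libraries were made from random hexamers. The submitters' processing notes name cutadapt, STAR, featureCounts, DESeq2 and build hg19. Their versions, the annotation and the strand setting are not stated in those notes or the labels. The authors deposited raw counts per Ensembl gene identifier and, for each library, a table of FPKM in the layout of Cufflinks.

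Counts were tested with edgeR 4.0.16 in R 4.3.3, using the quasi-likelihood test on all 9 libraries with group as the only term. Genes passed filterByExpr (minimum count 10, minimum total 15), scaling was TMM, and p-values were adjusted by Benjamini-Hochberg over all 18292 genes, with a threshold of 0.05. Standard errors are the size of the log2 change divided by the root of the F statistic. CPM are counts scaled to library size after TMM. FPKM served for levels between genes and, with limma 3.58.1 on log2(FPKM + 1) or log2(FPKM + 0.1), as an alternative, and DESeq2 1.42.0 as another. No columns of the libraries were identical. Start positions in the FPKM tables count from 0, so 1 was added. Totals of 31398075 to 51244525 counts set the precision.

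All members are accounted for. The rule for per-library values took the largest and smallest changes of each role and members not lower, and the remaining members were added for completeness. Members and lists were chosen with earlier results of these data known. Protein sequences were not used here.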

Additional observations from a re-analysis of the deposited data

How the results depend on the processing

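In GSK591 37 members were lower, and in MS023 against GSK591 37 were higher, in every alternative apart from the test against a log2 change of 0.5, and, in GSK591, the fit without DMSO replicate 2. The alternatives covered scaling, filters, DESeq2, FPKM, the libraries compared alone and each replicate left out. Against a log2 change of 0.5, 3257 genes were called in GSK591, 1797 in MS023 and 4177 between inhibitors, and in MS023 0 members were lower and 0 higher. In FPKM the members higher in MS023 numbered 5 (filtered, pseudocount 1), 4 (0.1) and 4 (unfiltered), the members lower numbered 7 unfiltered, and all genes called numbered 5782, 5770 and 5473. The cause was not tested. With each replicate left out, members higher in MS023 ranged from 6, without MS023 replicate 3, to 11. With only the bases before the start, 38.2% of members, 5.13% of other tested genes and 2.79% of all promoters held an E2F word.

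Signs turned only for members without a call. POLE in GSK591 was 0.0053 with total counts and 0.034, 0.036 and 0.034 in FPKM. In MS023 MCM10 was 0.0076 with total counts, 0.038, 0.040 and 0.038 in FPKM, and -0.074 to 0.012 with single replicates left out (0.0094 without MS023 replicate 2). POLE2 was -0.054, -0.058 and -0.054 in FPKM, and CHAF1B ranged from -0.0062, without DMSO replicate 3, to 0.079. MCM3 was -0.0022 in each FPKM fit, -0.0030, without DMSO replicate 1, to 0.046 with single replicates left out, and -0.0035 without both DMSO replicate 1 and GSK591 replicate 3, an alternative chosen after seeing the data. RFC2 was -0.0017 with RLE scaling, -0.0028 with DESeq2, -0.0054, -0.0055 and -0.0054 in FPKM, -0.013 without DMSO replicate 1 and GSK591 replicate 3, and -0.013 to 0.051 with single replicates left out.

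Pairing by replicate number was looked for in each library's deviations from its group mean. Same-numbered libraries had correlated deviations of -0.64 to 0.43, over 0.1 in 2 of 9 pairs, and 0 of 9 libraries correlated best with their own number. Deviations from a group's own mean sum to 0, which ties their signs together, so these values cannot exclude pairing. Differently numbered libraries of different groups ran from -0.63 (DMSO 1 with GSK591 2) to 0.53 (GSK591 2 with MS023 1). A block by replicate number does not take up these shared deviations, and their source was not tested. With the replicate block 37 members were lower in GSK591, 11 lower and 9 higher in MS023, and 37 higher in MS023 against GSK591, with 11145, 8855 and 11642 genes called.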
